A study of Mus musculus with 14 samples.

Results

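Cytotoxic lymphocytes kill with the contents of secretory granules and decide whom to kill through surface receptors. The genes described here are 10 mouse genes of that equipment, chosen by name: the granule proteases Gzma, Gzmb and Gzmk, the pore-forming protein Prf1, the death ligand Fasl, the granule membrane protein Nkg7, and the receptors Klrd1, Klrk1, Klrc1 and Klra8. The arrays carried 13 probes for them in 22 spots. Of the 10 genes, 8 were among the 17033 genes that were well above background on at least 3 arrays, and Fasl and Klrc1 were not.

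The tissue was B16F10 tumour, a transplanted melanoma of C57BL/6 mice. Untreated mice bore the tumour alone, and mice of the other arms received gp100-specific, CD90.1+ cytotoxic T lymphocytes (CTLs), activated in vitro, after 9 days of tumour growth (gp100 is a melanocyte protein). Untreated and CTL tumours were taken on days 1, 3, 5 and 7 after transfer, with RNA of 4 tumours pooled for each array. In 2 more arms the CTL recipients were injected with anti-IFNg, which blocks interferon gamma, or with control rat IgG, on days 0 and 2, and tumours were taken on days 3, 5 and 7, with RNA of 3 tumours pooled for each array. This gave 14 arrays, 1 for each arm and day. The labels mention no depletion of host lymphocytes, so the transferred cells and the host's own are measured together. In whole tumour RNA, fewer cells of a type and less RNA per cell cannot be told apart.

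As background, perforin opens the target cell to granzymes, which cleave proteins inside it and start its death, and Fas ligand triggers death through the receptor Fas. CD94, the product of Klrd1, pairs with NKG2A, the product of Klrc1, to form an inhibitory receptor for the non-classical class I molecule encoded by H2-T23. NKG2D, the product of Klrk1, activates killing on contact with stress ligands such as those of the Raet1 family, and activated mouse CD8 T cells carry it. Klra8 encodes Ly49H, a receptor best known from natural killer cells.

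The 250 bases before the start sites of 5 members are shown, chosen with their expression known. Gzma, Gzmb, Prf1 and Nkg7 rose together after transfer, and Gzmk was above background in no untreated or CTL tumour. The sequences are those of RefSeq in GRCm38.p6, read 5′ to 3′ on the strand of the gene. Capitals mark the letters TGTGGT on either strand, the core of the Runx motif, and no other motif is marked. The windows lie at chr13:113100982-113101231 (minus strand), chr14:56262335-56262584 (minus), chr10:61297586-61297835 (plus), chr7:43436888-43437137 (plus) and chr13:113180966-113181215 (minus), in the order of the lines.
Gzma: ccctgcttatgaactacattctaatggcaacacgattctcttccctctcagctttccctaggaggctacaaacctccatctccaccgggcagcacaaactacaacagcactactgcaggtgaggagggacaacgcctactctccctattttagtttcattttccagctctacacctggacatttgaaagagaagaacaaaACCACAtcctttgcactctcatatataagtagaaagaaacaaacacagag
Gzmb: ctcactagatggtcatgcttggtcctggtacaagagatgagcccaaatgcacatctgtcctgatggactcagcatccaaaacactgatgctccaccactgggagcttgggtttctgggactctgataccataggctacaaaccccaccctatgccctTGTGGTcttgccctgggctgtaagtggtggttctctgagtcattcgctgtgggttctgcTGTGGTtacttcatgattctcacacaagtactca
Prf1: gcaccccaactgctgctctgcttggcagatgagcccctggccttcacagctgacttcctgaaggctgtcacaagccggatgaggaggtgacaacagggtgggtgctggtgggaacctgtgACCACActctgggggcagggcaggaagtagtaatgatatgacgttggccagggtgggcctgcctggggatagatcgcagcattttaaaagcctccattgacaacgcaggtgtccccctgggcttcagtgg
Nkg7: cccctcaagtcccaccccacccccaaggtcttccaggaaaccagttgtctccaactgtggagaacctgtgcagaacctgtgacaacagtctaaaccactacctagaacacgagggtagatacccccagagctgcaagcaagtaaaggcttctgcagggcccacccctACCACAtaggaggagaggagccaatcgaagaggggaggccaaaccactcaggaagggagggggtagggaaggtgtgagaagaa
Gzmk: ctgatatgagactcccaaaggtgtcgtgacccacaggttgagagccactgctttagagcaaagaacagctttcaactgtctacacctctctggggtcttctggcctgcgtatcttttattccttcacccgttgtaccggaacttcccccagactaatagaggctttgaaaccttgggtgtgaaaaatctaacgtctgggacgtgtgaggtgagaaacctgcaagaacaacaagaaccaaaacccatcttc

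A window was at hand for 9 of the 10 members, and Klrd1 had none. The Runx letters were in 6 of the 9, those of Gzma, Gzmb, Prf1, Nkg7, Klrk1 and Klrc1, and in 14% of all 32851 windows of this length. The Gzmb window held them at 2 places, with first bases 93 and 34 before the start site. The T-box letters AGGTGTGA were found in the Nkg7 window and in 1.12% of all windows, and the shorter GGTGTGA, which lies inside them, was found for Nkg7 and Gzmk and in 3.33% of all. The AP-1 letters TGANTCA were found for Gzmb (6.75% of all windows) and the STAT letters TTCNNNGAA for Nkg7 (7.02%). The Ets letters GGAAGT were found for Gzmk, Prf1 and Fasl (19.7%). The CRE letters TGACGTCA (1.55%) and the GATA letters AGATAA (9.99%) were in none of the 9. Klra8, which was called higher with CTLs, had no Runx letters, and Klrc1, which had them, was above background on no array. Both strands were searched, and a match describes the sequence only. A link between letters and expression was not tested.

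Expression is given on the log2 scale relative to the 75th percentile of each array's spots, so 0 is the level of a fairly bright spot. Between 48.9% and 59.7% of spots were well above background on an array, and the lowest signal that was lay between -4.65 and -3.21 on this scale. Values under that level are recorded signals, but set only an upper limit, and a change against an arm with no array above background is given as "at least N-fold". Fitted log2 differences use the recorded signals, dim ones included. Differences between arms were tested with limma over days 3, 5 and 7, each day being 1 slide, with p-values adjusted over all genes. The labelled tissue fitted its markers, since the summed level of 7 melanocyte genes lay between 1297 and 1826 times the 75th percentile signal on every array. Of 10 T cell markers, all were measured. Their summed level was 2.66 to 3.66 times the 75th percentile signal in untreated tumours of days 3 to 7 and 7.16 to 14 in CTL tumours. In untreated tumours most of that sum came from the probes used for Cd8b1, Thy1 and Lck (0.004, -0.35 and -1.01 on day 3). The sum thus says little of markers dim there, such as Cd8a.

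**Figure D1:**
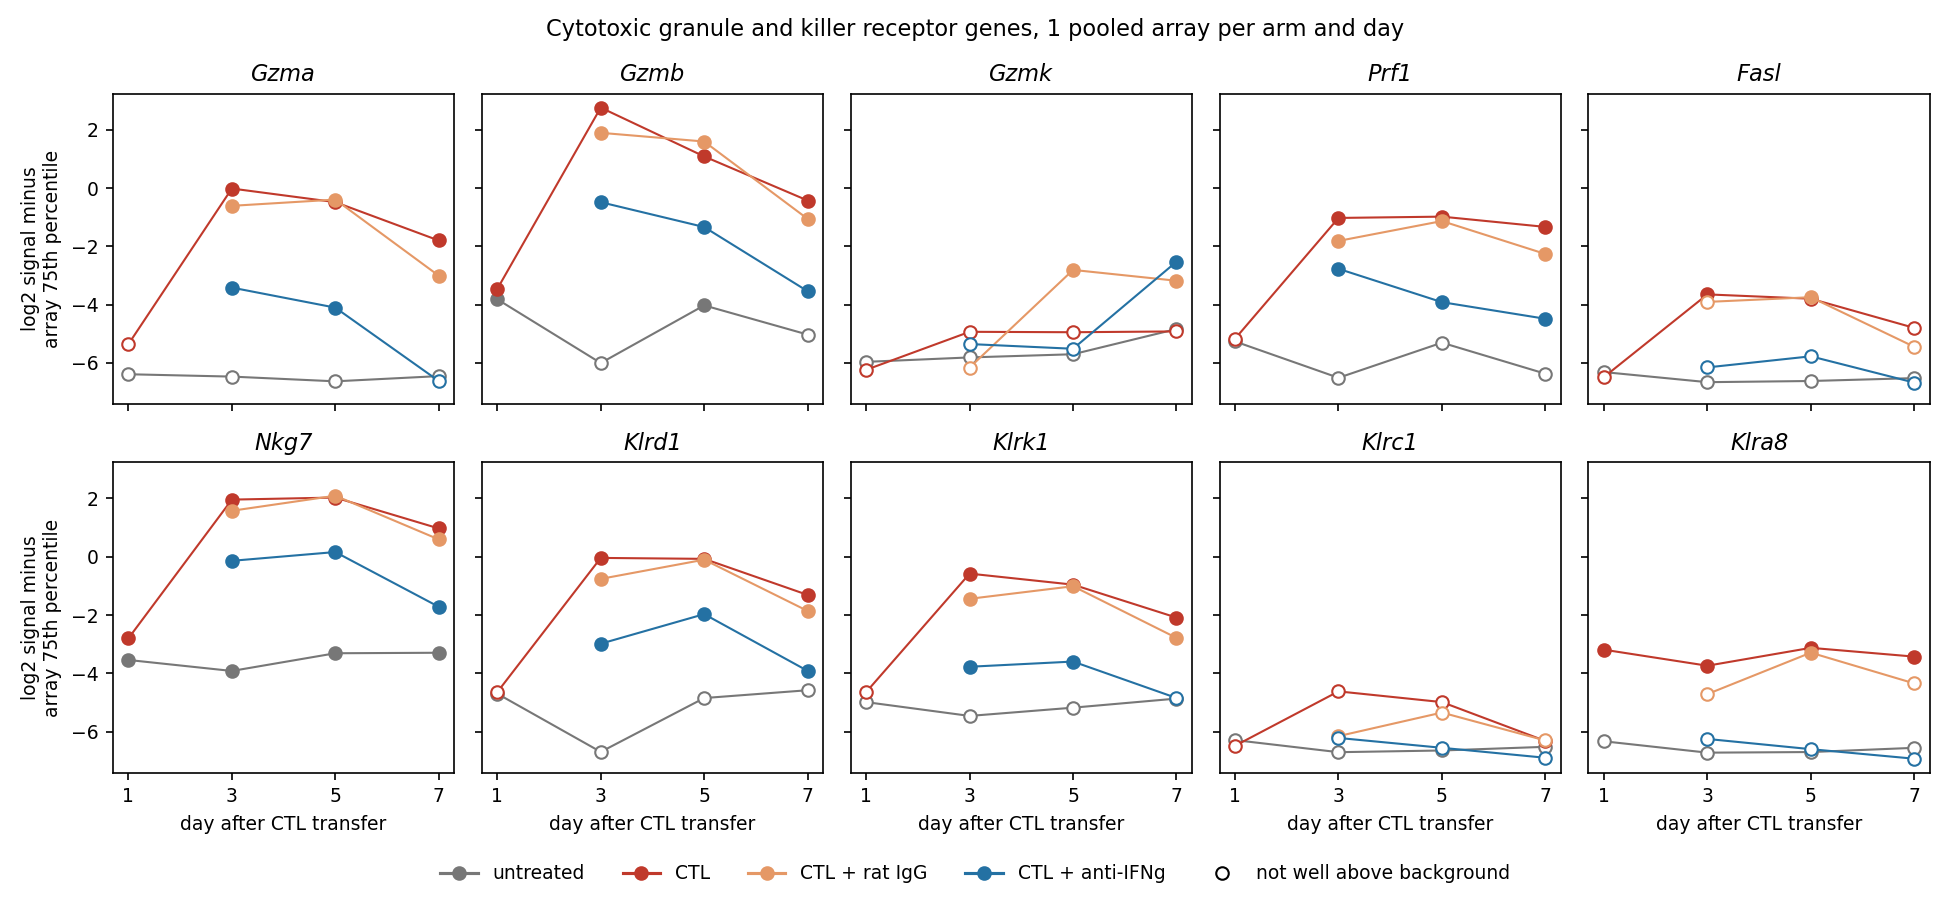
Level of each of the 10 members (log2 signal minus the array's 75th percentile, vertical axis) against the day after transfer, 1 point per pooled array and 1 colour per arm. Filled points were well above background and open points were not. On days 3 to 7 the CTL and rat IgG arms lie above the untreated arm for Gzma, Gzmb, Prf1, Nkg7, Klrd1, Klrk1 and Klra8, the anti-IFNg arm lies between them for most of these, and Klra8 alone is above background in CTL tumours from day 1 while dim in untreated tumours.

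CTL transfer was followed by a large rise of the killing genes. On days 3 to 7, 7 of the 8 measured members were higher in CTL than in untreated tumours, beside 10.1% of all genes. None fell, and Gzmk did not pass the test. Gzma, Prf1, Klrd1, Klrk1 and Klra8 were above background on no untreated array. They and Gzmk were measured only through arms with CTLs, so the filter favoured this direction. The median fitted log2 change of the 8 was 4.92, or 3.45 with dim genes set at their bound, and that of all genes was -0.10.

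Among the granule proteases, Gzmb, the granzyme that activates caspases in the target, had the largest fitted change of the 8. It stood at 2.76, 1.08 and -0.43 in CTL tumours on days 3, 5 and 7 and at -6.00, -4.03 and -5.03 in untreated tumours of the same days, where only day 5 was above background. The arms did not overlap, and on day 5, when both arrays were above background, the gap was 5.11. The fitted log2 change was 6.15 ± 0.77 (SE, n = 3 days; limma adjusted p 0.00133), which takes in the dim untreated signals of days 3 and 7 as recorded. Its probe lies at chr14:55213150-55213209 in mm8, the build of the array files.

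Gzma, a tryptase that cuts after basic residues, was below background in every untreated tumour (-6.63 to -6.39). In CTL tumours it stood at -0.02, -0.49 and -1.80 on days 3, 5 and 7, all above background, after -5.35 on day 1, which was not. The rise was at least 12.3-fold (limma adjusted p 0.000472). Gzmk, another granzyme whose gene lies near Gzma on chromosome 13, behaved differently. It stood at -4.93, -4.95 and -4.92 in CTL tumours and at -5.81, -5.70 and -4.84 in untreated tumours, none of them above background. Its fitted log2 difference was 0.52 ± 0.77 (SE, n = 3 days; limma adjusted p 0.632). It was above background only with rat IgG on days 5 and 7 (-2.81 and -3.18) and with anti-IFNg on day 7 (-2.53).

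Prf1, which encodes perforin, stood at -1.03, -0.98 and -1.33 in CTL tumours of days 3, 5 and 7. Untreated tumours lay between -6.51 and -5.26 and were all below background. Perforin message was at least 9.71-fold higher (limma adjusted p 0.000188). Nkg7, which encodes a granule membrane protein needed for full degranulation, was the only member above background on all 14 arrays. It stood at 1.96, 2.03 and 0.97 in CTL tumours and at -3.92, -3.31 and -3.29 in untreated tumours of days 3, 5 and 7. This was a 35.7-fold rise (log2 change 5.16 ± 0.37, SE, n = 3 days; limma adjusted p 0.000127), and a second Nkg7 probe, below background in untreated tumours, was at least 24.6-fold higher.

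Fasl, the death ligand, was near the limit of the array. Its probe with 10 spots stood at -3.65, -3.80 and -4.80 in CTL tumours of days 3, 5 and 7 and at -6.66, -6.62 and -6.52 in untreated tumours. It passed background in CTL tumours on day 3 and with rat IgG on day 5, and it was too rarely bright to be tested. The standard deviation of log2 signal over its spots within an array ran from 0.03 to 0.63. The other Fasl probe was above background only with rat IgG on day 3, and its same-day differences between CTL and untreated tumours were -0.33, 1.37 and -0.39, so the 2 probes did not give the same picture.

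The lectin-like receptors sit together on chromosome 6. Klrd1 (CD94) stood at -0.04, -0.07 and -1.31 in CTL tumours of days 3, 5 and 7 and at -6.69, -4.85 and -4.58 in untreated tumours, none of these above background. It was at least 15.1-fold higher (limma adjusted p 0.00118), a call that was lost without day 5 (adjusted p 0.0534). Klrk1 (NKG2D) stood at -0.58, -0.96 and -2.09 against -5.46, -5.18 and -4.87, and was at least 9.09-fold higher (limma adjusted p 0.000536). Its second probe was never above background. Klrc1 (NKG2A), the usual partner of CD94, was below background on all 14 arrays, with -4.62, -4.99 and -6.32 in CTL tumours and -6.70, -6.65 and -6.52 in untreated tumours of days 3, 5 and 7, so no level can be given.

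Klra8 followed another course. It was above background in CTL tumours on every day, with -3.19, -3.74, -3.13 and -3.43 on days 1, 3, 5 and 7, and below it in all untreated tumours (-6.72 to -6.33). On days 3 to 7 the rise was at least 1.95-fold (limma adjusted p 0.000432). The Klra genes are related copies, some of them near-identical, and Klrc1 and Klrc2 are close relatives. How far each probe reads its relatives was not tested.

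Another setting of the background shrank these changes without ending them. With normexp correction, which adds an offset of 50 to every signal, the fitted log2 change fell to 2.29 for Gzma, 3.35 for Gzmb, 2.00 for Prf1 and 1.34 for Klra8. The test called 1719 genes higher and 3641 lower in all, against 2088 and 2557 with normexp and 2167 and 2207 when the percentile was taken over probes above background on all arrays, which moved the median of all genes from -0.10 to 0.02.

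On day 1 most members lay nearer to their untreated level. None of the 8 measured members passed the test between CTL and untreated tumours of that day (limma, 0% of all genes called, 236 genes at an unadjusted p under 0.05). The fitted log2 differences of 7 members on day 1 ran from -0.27 for Gzmk to 1.03 for Gzma. Klra8 was the exception in size, with -3.19 in the CTL tumours and -6.33 in the untreated tumours of day 1. It was at least 1.93-fold higher there, with a fitted difference of 3.14 ± 0.53 (SE, 1 array per arm) and a limma adjusted p of 0.329.

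The change from day 1 to days 3 to 7 was tested as a difference of differences. It was higher for Nkg7 (4.42 ± 0.75, SE; limma adjusted p 0.0417) and Prf1 (4.85 ± 0.78; 0.0367), beside 0.834% of all genes. The other fitted values were 5.80 for Gzmb, 4.84 for Klrd1, 4.72 for Gzma and 3.61 for Klrk1, with adjusted p from 0.0957 to 0.150, then 0.79 for Gzmk and 0.09 ± 0.62 for Klra8. For Prf1 both arrays of day 1 were below background, so its value is that of recorded signals. Day 1 rests on a single pair of arrays, whose spread is taken from the later days. Without day 3, day 5, any of the CTL or rat IgG arrays of days 3, 5 and 7, or the untreated array of day 5, the count of members called dropped from 2 to 0. Without the anti-IFNg array of day 3 or of day 5 it was 1, and without day 7 or the untreated array of day 7 it was 4 and 6.

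**Figure D2:**
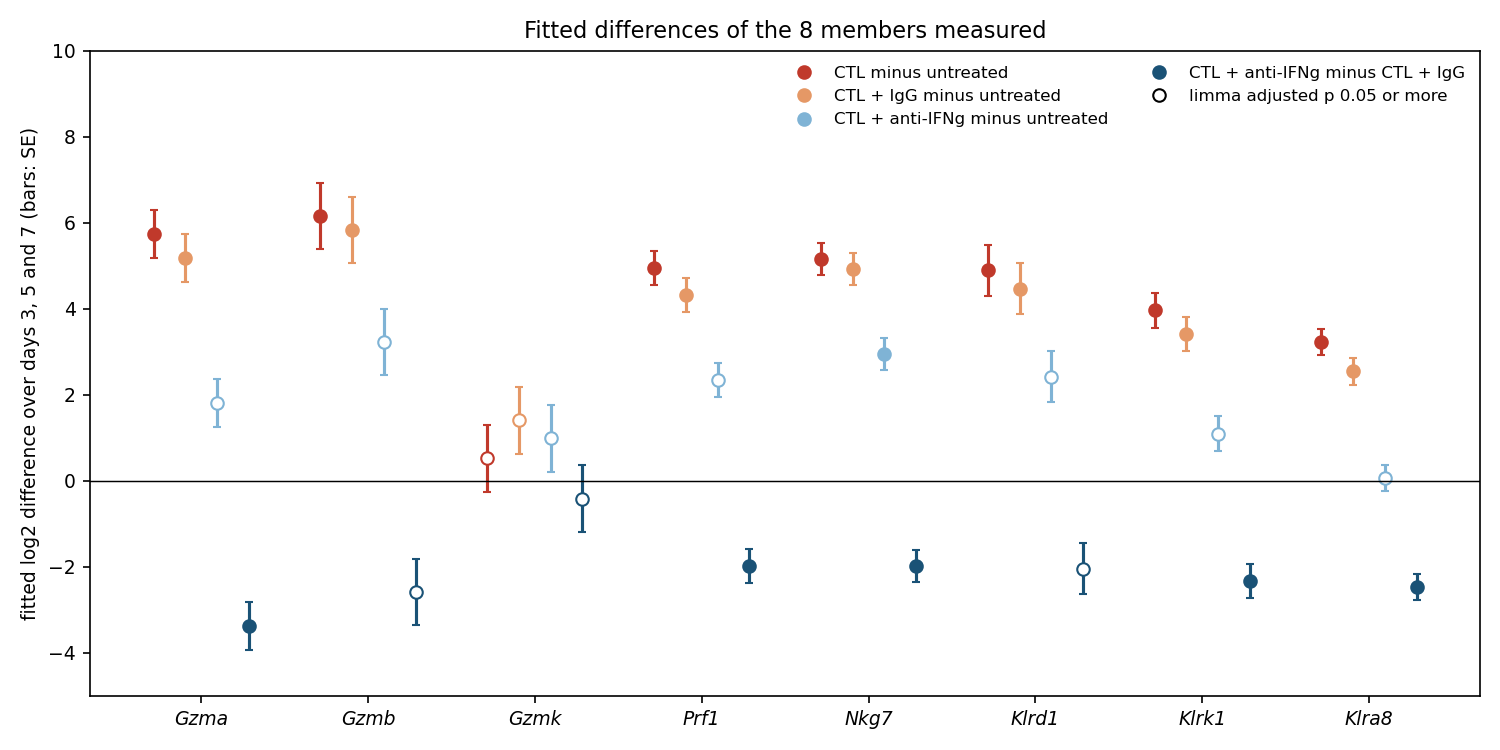
Fitted log2 differences with standard errors (vertical axis) of the 8 measured members over days 3, 5 and 7 for 4 comparisons, filled where the limma adjusted p was under 0.05. The CTL and rat IgG arms differ from untreated tumours by 3.23 to 6.15 and 2.54 to 5.83 for 7 members, and the differences with anti-IFNg against rat IgG (dark blue) are all below 0. For members dim in untreated tumours the plotted value is the fitted one and the bound in the text is smaller.

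No difference between CTLs with rat IgG and CTLs alone passed the test for any of the 8 measured members (limma, 0.0117% of all genes called), with 3208 genes but 0 members at an unadjusted p under 0.05. The fitted log2 differences ran from -0.69 for Klra8 to 0.88 for Gzmk. Against untreated tumours, which are the same arrays as above and so no independent support, 7 of 8 members were higher with CTLs and rat IgG, beside 7.46% of all genes (1270 higher and 1904 lower, against 614 and 326 with normexp). The filter favoured this direction too. Nkg7 stood 4.93 ± 0.37 (SE, n = 3 days) above untreated tumours on the log2 scale, and Gzma was at least 8.31-fold higher. Without day 5 the count fell to 4, with Gzmb, Klrd1 and Klrk1 no longer called, and with normexp Klra8 was no longer called (adjusted p 0.517).

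Most killing genes were lower where interferon gamma was blocked. All 8 measured members had lower fitted values with anti-IFNg than with rat IgG, and 5 passed the test, Gzma, Prf1, Nkg7, Klrk1 and Klra8, beside 5.92% of all genes. The median log2 difference of the 8 was -2.19 and that of all genes was 0.06. Gzma stood at -3.42, -4.10 and -6.62 with anti-IFNg on days 3, 5 and 7, the last below background, and at -0.61, -0.40 and -3.01 with rat IgG. The arms did not overlap, and Gzma fell by 3.37 ± 0.56 on the log2 scale (SE, n = 3 days; limma adjusted p 0.00835), the largest difference of the 8.

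Prf1 stood at -2.77, -3.91 and -4.48 with anti-IFNg and at -1.82, -1.13 and -2.26 with rat IgG on days 3, 5 and 7, all above background. It fell by 1.99 ± 0.39 on the log2 scale (limma adjusted p 0.0160), and the gap was smallest on day 3. Nkg7 stood at -0.14, 0.16 and -1.72 against 1.57, 2.09 and 0.59, and fell by 1.99 ± 0.37 (limma adjusted p 0.0131), with a gap on every day of 1.72 to 2.31. The same-day gaps of its second probe were -1.79, -1.98 and -2.24.

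Gzmb stood at -0.49, -1.34 and -3.54 with anti-IFNg and at 1.89, 1.59 and -1.06 with rat IgG. It was lower on each of the 3 days, by 2.38 to 2.93, yet the arms overlapped over the days and the fitted difference of -2.60 ± 0.77 missed the threshold (limma adjusted p 0.0628). Gzmk did not keep a direction, with same-day differences of 0.80, -2.70 and 0.65. The Fasl probe with 10 spots was above background on no array of the anti-IFNg arm and on 1 of the rat IgG arm.

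Of the receptors, Klrk1 stood at -3.77, -3.60 and -4.85 with anti-IFNg, the last below background, and at -1.44, -1.01 and -2.78 with rat IgG. It fell by 2.32 ± 0.40 on the log2 scale (SE, n = 3 days; limma adjusted p 0.00932). Klrd1 stood at -2.98, -1.97 and -3.92 against -0.76, -0.10 and -1.86, and the fitted difference of -2.05 ± 0.59 missed the threshold (limma adjusted p 0.0594) although the arms did not overlap. Klra8 was below background on all anti-IFNg arrays (-6.25, -6.60 and -6.93), as in untreated tumours, and stood at -4.71, -3.29 and -4.35 with rat IgG, where only day 5 was above background. It passed the test (limma adjusted p 0.00340), on recorded signals that were dim on 5 of these 6 arrays, so no fold is given. With normexp the call was lost (adjusted p 0.460).

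These 5 calls rest on the form of the model and on single arrays. When 1 CTL effect was fitted over all 4 days, the differences kept their size and none of the 8 members passed (2 genes in all, against 2138). The count was 0 without day 5, 3 without day 3 or the rat IgG array of day 3, and 2 without the rat IgG array of day 5. It was 7 without the untreated array of day 3 or of day 7, which added Gzmb and Klrd1. It was also 7 with quantile normalization and with a filter asking for all arrays of at least 1 arm above background. With normexp it was 6, and in each of these 3 settings Gzmb and Klrd1 were called. The split of all calls was 1130 higher and 1008 lower, and 140 and 503 with normexp.

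With both CTLs and anti-IFNg, Gzmb, Prf1, Nkg7, Klrd1 and Klrk1 lay between the untreated arm and the 2 unblocked arms on each of days 3, 5 and 7. On day 7 Klrk1 was only 0.02 above the untreated array, and both were below background. Against the untreated arrays, which the comparisons above share, Nkg7 was 2.94 ± 0.37 higher on the log2 scale (SE, n = 3 days; limma adjusted p 0.0390), the only member called, beside 0.153% of all genes. That call was lost in 18 of 25 alternatives, among them leaving out day 3, day 5 or any array of those days. It was lost too without the CTL or the rat IgG array of day 7, and without the untreated array of day 7 there were 4 members called. Prf1 was at least 1.59-fold and Klrd1 at least 2.71-fold above untreated tumours (limma adjusted p 0.118 and 0.366). Gzmb had a fitted difference of 3.23 ± 0.77 (limma adjusted p 0.335) and Klra8 of 0.07 ± 0.31 (0.999).

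**Figure D3:**
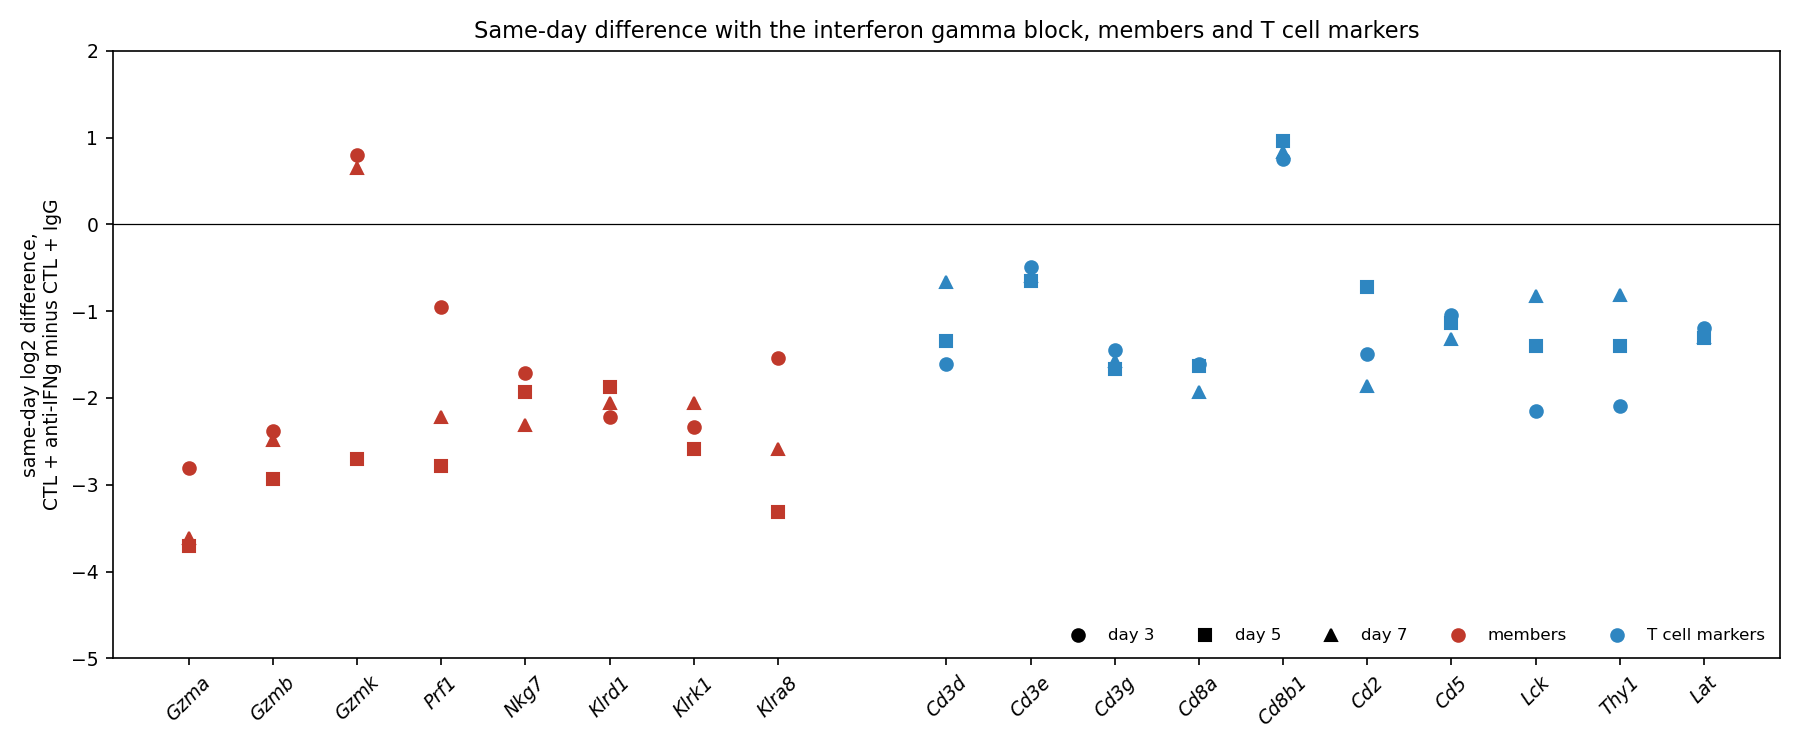
Same-day log2 difference between the anti-IFNg and rat IgG arms (vertical axis) for the 8 measured members (red) and 10 T cell markers (blue), 1 symbol per day. All members except Gzmk lie below 0 on each day, as do all T cell markers except Cd8b1, and the Gzma points reach furthest down.

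T cell markers moved with the members. In the CTL arm 9 of the 10 rose on days 3 to 7, among them Cd8a (at least 22.0-fold; limma adjusted p 1.62e-05) and Cd3d (log2 change 6.10 ± 0.53; 0.000270; 1 of 3 untreated arrays above background), and the probe used for Cd8b1 fell by 0.85. A second Cd8b1 probe was higher by 4.92 in mean, so the probes of that gene disagree. The summed T cell level was 5.35 to 11.8 with rat IgG and 3.54 to 5.29 with anti-IFNg. That sum includes the probe used for Cd8b1, which moved the other way. The fitted log2 differences between these arms were -1.73 to -0.58 for the 9 markers other than Cd8b1, of which 5 fell. For the 7 members other than Gzmk they were -3.37 to -1.99, and Gzmk had -0.42. Between the same arms the probe used for Cd8b1 differed by 0.85 in mean and its second probe by -1.77. Cd3e, Cd5, Lck, Thy1 and Lat were above background on all 14 arrays, untreated ones included, as was Nkg7 among the members. Whether the members differ from the markers was not tested, nor was the part of T cell number in the result.

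Markers of natural killer cells, which carry most of the same receptors, were mostly below background. Of 6 listed, only Klrb1c was measured, at a summed level of 0.07 to 0.10 in CTL tumours and 0.01 to 0.02 in untreated tumours of days 3 to 7. It was called higher in CTL tumours (limma adjusted p 0.00169), with 2 of 3 CTL arrays above background. Klrb1c was also called lower with anti-IFNg than with rat IgG, at 0.01 to 0.02 against 0.05 to 0.10. Of the arrays of these 2 arms, only that of rat IgG on day 5 was above background. Ncr1, Klre1, Eomes, Itga2 and Khdc1a were too dim to be measured. Of 5 measured macrophage markers, 5 rose in CTL tumours and 4 fell with anti-IFNg. Their summed level was 2.41 to 3.23 in untreated tumours, 13.3 to 17.9 with CTLs, 9.97 to 17.1 with rat IgG and 2.81 to 4.78 with anti-IFNg.

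Markers of other cells moved too. The summed level of 3 measured neutrophil markers was 0.21 to 0.96 in untreated tumours, 1.21 to 6.44 with CTLs, 1.16 to 50.02 with rat IgG and 0.22 to 0.60 with anti-IFNg, and the highest value was that of rat IgG on day 7. Of these markers Csf3r was called higher with CTLs, and Csf3r and S100a8 were called lower with anti-IFNg. Of 3 measured keratinocyte markers, 3 rose with CTLs, and of 2 measured erythroid markers, 2 fell. With CTLs and rat IgG, none of these 5 was called against untreated tumours. The summed keratinocyte level was 0.74 to 1.34 with CTLs, 0.33 to 0.45 with rat IgG and 0.33 to 0.54 in untreated tumours. None of the 5 passed the test between anti-IFNg and rat IgG. The part of macrophages and of these cells in the results was not tested.

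Most other granule and effector genes measured rose with CTLs. Beside this and every other list, 10.1% of all genes rose with CTLs and 5.92% fell with anti-IFNg. As with the members, some listed genes were bright only in arms with CTLs, which favoured a rise. Of 22 listed, 17 were measured, 12 rose in CTL tumours and Calr, a chaperone also stored in granules, fell by 0.36, with a list median of 2.73. Ifng, the cytokine the antibody blocks, was above background on 1 of 3 untreated arrays and rose by 5.66 ± 0.56 on the log2 scale (limma adjusted p 0.000502), the chemokine Ccl5 by 3.58 ± 0.33 (0.000359) and Serpinb6b, a serpin, by 2.22 ± 0.22 (0.000472). With anti-IFNg 9 of the 17 fell and Calr rose by 0.44. Ccl5 fell by 2.59 ± 0.33 (limma adjusted p 0.00363), while Ifng had a difference of -1.79 ± 0.56 that missed the threshold (0.0746).

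The machinery that carries granules to the membrane changed in part. Of 10 measured genes 4 rose with CTLs and the list median was 0.24. Coro1a, an actin-binding protein of leukocytes, rose by 3.21 ± 0.20 (limma adjusted p 6.55e-05), Unc13d, which primes granules for fusion, by 1.20 ± 0.18 (0.00296) and Stx11, a membrane fusion protein, by 1.12 ± 0.19 (0.00499). All 3 fell with anti-IFNg, by 1.88 for Coro1a, 0.94 for Unc13d and 0.88 for Stx11, and no other gene of the list fell.

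Of 38 other killer receptors listed, 32 were on the array and 12 were measured. Of these, 8 rose in CTL tumours (list median 2.27) and 8 fell with anti-IFNg, beside 10.1% and 5.92% of all genes. Klra7, Klra15 and Klrc2 were below background on every untreated array. They were measured only through arms with CTLs, which favoured a rise. Klra probes may read each other's message, which was not tested, so the count may repeat genes. Klrc2 (NKG2C) was at least 7.50-fold higher with CTLs (limma adjusted p 0.000671) and Slamf7 at least 11.0-fold (0.000686). The other probes of Klrc2 were above background on no array. Klrb1b was called higher (limma adjusted p 0.000259) with 1 of 3 CTL arrays above background, so its fold is not given. Slamf7 was below background in the anti-IFNg arm, at least 6.24-fold under rat IgG (limma adjusted p 0.00666).

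Every measured adaptor that passes on receptor signals changed, since 6 of 6 rose with CTLs and 6 of 6 fell with anti-IFNg. Tyrobp (DAP12) rose by 2.62 ± 0.20 (limma adjusted p 0.000144) and Fcer1g by 2.76 ± 0.25 (0.000306). Both are used by myeloid cells too. Zap70, the kinase of the T cell receptor, was at least 12.7-fold higher (limma adjusted p 0.000251). Of the transcription factors of cytotoxic lymphocytes, 4 of 9 measured rose, among them Tbx21 (T-bet), at least 13.5-fold (limma adjusted p 0.00153), Stat4, at least 3.57-fold (0.000240), and Batf by 0.87 ± 0.15 (0.00574). With anti-IFNg 2 of the 9 fell, Tbx21 by 2.69 ± 0.59 (limma adjusted p 0.0228) and Stat4 by 1.67 ± 0.26 (0.00713).

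Of 8 measured ligand and death receptor genes, 4 rose with CTLs. In whole tumour RNA the cells that carried these messages were not told apart. H2-T23, which encodes the ligand of CD94 with NKG2A, rose by 3.78 ± 0.28 on the log2 scale (limma adjusted p 0.000132), and the classical class I genes H2-K1 and H2-D1 by 3.17 ± 0.13 and 3.08 ± 0.12 (1.07e-05 and 8.68e-06). Raet1d, a ligand of NKG2D, fell by 0.87 ± 0.16 (limma adjusted p 0.00700). With anti-IFNg the signs were turned, with H2-T23 down by 2.87 and Raet1d up by 0.65 ± 0.16 (limma adjusted p 0.0377).

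**Figure D4:**
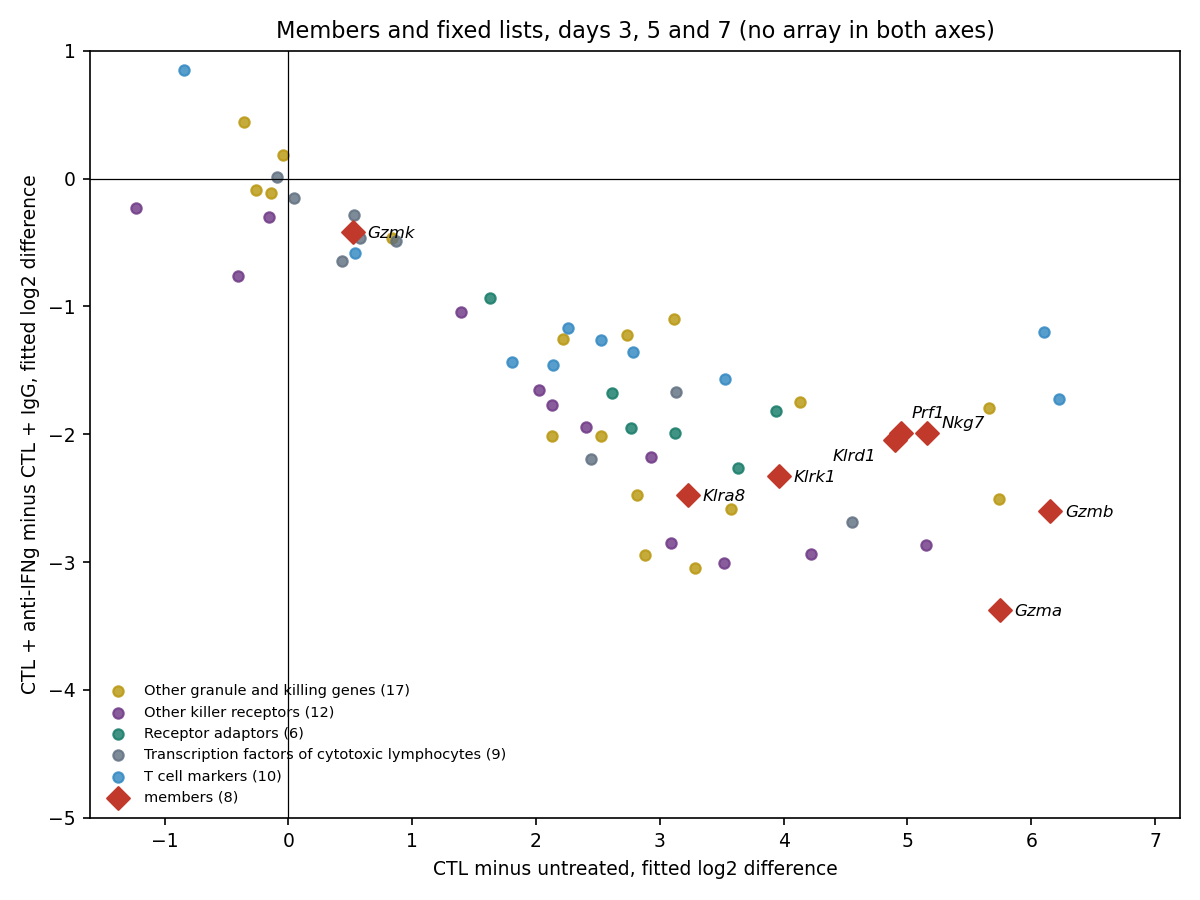
Fitted log2 difference of CTL minus untreated tumours (horizontal axis) and of anti-IFNg minus rat IgG (vertical axis) over days 3, 5 and 7, 1 point per gene, for the 8 members (diamonds) and 5 lists. The axes share no array. Members other than Gzmk lie at the right and below 0, with Gzma at 5.75 and -3.37, Gzmb at 6.15 and -2.60, and Nkg7 at 5.16 and -1.99.

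Over the 14 arrays the members other than Gzmk and Klra8 rose and fell together. Pearson's r with Nkg7, the granule member with the highest mean signal, was 0.956 for Gzma, 0.960 for Gzmb, 0.970 for Prf1, 0.978 for Klrd1 and 0.955 for Klrk1, but 0.660 for Klra8 and 0.336 for Gzmk. The arrays share arms and days, so these values describe the pattern and carry no test. Among 11823 other genes bright in at least 1 arm, those most like Nkg7 were Zap70 (r 0.992), Cd8a (0.990), Ltb (0.989), Cst7 (0.986) and Ms4a4b (0.985). Those most like Klrd1, the receptor with the highest mean signal, were Zap70 (0.990), Ms4a4b (0.984), Il2rb (0.983), Ltb (0.980) and Pdcd1 (0.979).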

How the data were processed

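Total RNA of pooled tumours was labelled with Cy3 and hybridised to Agilent one-colour arrays, per the labels' protocols. The scanning software was Agilent Feature Extraction 9.5 according to the submitters' processing notes. The deposited scanner files hold spot intensity with the background already subtracted, per the file headers. The authors' deposited table of log2 values correlated at r = 1 with the log2 processed signal of each array and differed from it by a constant.

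Here the log2 processed signal was centred on the 75th percentile of 43379 non-control spots, spots of a probe were averaged without outliers, and the brightest probe of each gene was kept where at least 3 arrays were well above background. limma 3.58.1 in R 4.3.3 fitted arm, day and a separate CTL term for day 1 on all 14 arrays, with Benjamini-Hochberg adjustment over 17033 genes and a two-sided threshold of 0.05. Precision is limited by the number of arrays. No arm and day is replicated, so n counts days, and p-values measure how same-day differences of pooled tumours vary between days. Day equals slide. The arms kept their positions on all slides, which means that arm and position cannot be told apart. Arrays of the same day deviated together with a median r of 0.129 (12 of 18 pairs over 0.1), and the labels give the shared day. For a bound, the dim arm was raised on each array to the lowest signal counted as well above background, unless the probe's own was higher. Spot coordinates are in mm8, and promoter windows and current gene names come from RefSeq tables of GRCm38.p6. The fit was tested on simulated data.

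The members, lists, model and naming rule (all members, and of each list the 3 genes with the smallest p and any called the opposite way) were chosen with earlier results of these data known. The alternatives were the background correction, the normalization, the deposited log2 table, the filter on dim probes, the probes per gene, the model and each day or array left out.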

Additional observations from a re-analysis of the deposited data

Results flagged for a closer look

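For the 8 measured members, the lowest and highest arrays of the untreated and CTL arms (16 groups of 4 arrays) were set against Dixon's critical value, which compares the gap to the nearest array with the whole range of the group. This singled out 3 values, of Gzmk, Prf1 and Klrd1. Others, such as Nkg7 in CTL tumours of day 1, had gaps wider than those of Gzmk and Klrd1, but over wider ranges. Gzmk in CTL tumours of day 1 was at -6.23, under the other CTL arrays, which lay between -4.95 and -4.92, and no CTL array was above background for it. Prf1 in CTL tumours of day 1 was at -5.17, below background, when the later CTL arrays lay between -1.33 and -0.98. Klrd1 in untreated tumours of day 3 was at -6.69, under -4.85 to -4.58 on the other days, all below background. By construction of that value, chance alone gives about 1 in 20 groups of like arrays. The CTL groups join day 1 with the later days, so that rate does not apply to them.

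The fitted CTL effect was larger on days 3 to 7 than on day 1 for Nkg7, by 4.42, and for Prf1, by 4.85, on the log2 scale (limma adjusted p 0.0417 and 0.0367). The spread comes from the later days alone, Prf1 was below background on both arrays of day 1, and the calls were lost in 15 and 13 of 24 alternatives.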

How the results depend on the processing

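No fitted value of a called member changed sign under any alternative. The comparison of CTL with untreated tumours on days 3 to 7 called 6 to 7 members when a day or array was left out, and 7 under each other alternative. Counts of genes over the whole array moved more. When 1 CTL effect was fitted over all 4 days, 1839 genes were called for CTL against untreated tumours (5360 in the fit with a day 1 term), 1705 for rat IgG against untreated (3174), 2 genes and 0 members for anti-IFNg against rat IgG (2138 and 5), 4 for rat IgG against CTL alone (2), and 0 genes and 0 members for anti-IFNg against untreated (27 and 1). With only the arrays of the arms compared, the counts were 835, 1064, 911, 0, and 0 genes and 0 members, and for the change from day 1 they were 0 genes and 0 members (173 and 2). With normexp they were 940 for rat IgG against untreated, 643 for anti-IFNg against rat IgG, 0 for rat IgG against CTL alone, 2 genes and 0 members for anti-IFNg against untreated, and 43 genes and 0 members for the change from day 1. Without a filter on dim probes they were 3294, 2003, 1144, 10 genes and 0 members for anti-IFNg against untreated, 0 members for the change from day 1, and 52 genes on day 1 (0). Quantile normalization called 5 genes on day 1, and 261 genes and 4 members for the change from day 1. The deposited table called 3 genes on day 1. The stricter filter called 2 genes on day 1 and 1 for rat IgG against CTL alone. The percentile over detected probes left 0 members for anti-IFNg against untreated. The cause was not tested. The alternatives for day 1 were chosen after seeing the data.

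The day is the replicate block. Without the replicate block, 5 members and 1515 genes were called for the change from day 1, 4 genes and 1 member (Klra8, adjusted p 0.0376) on day 1, 4 genes for rat IgG against CTL alone, and 3 genes and 0 members for anti-IFNg against untreated. It changed the count of members in no other comparison.

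Leaving out 1 day or array gave 661 to 6987 genes for CTL against untreated, 0 to 6 on day 1, 4 to 733 genes and 0 to 6 members for the change from day 1, 50 to 2970 genes and 0 to 7 members for anti-IFNg against rat IgG, 0 to 8 genes for rat IgG against CTL alone, 526 to 3996 genes and 4 to 7 members for rat IgG against untreated, and 1 to 57 genes and 0 to 4 members for anti-IFNg against untreated.

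Signal over background limits Fasl, Klrc1, Gzmk and Klra8 most. Each value is 1 pooled array, and single mice were not measured.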
